A study of Danio rerio with 16 samples.

Results

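The nuclear sex steroid receptors and the aromatases of the zebrafish testis were described as 7 genes: the androgen receptor gene ar, the estrogen receptor genes esr1, esr2a and esr2b, the progestin receptor gene pgr, and the aromatase genes cyp19a1a and cyp19a1b. They were found by gene symbol among the RefSeq accessions of the count tables, and each of the 7 had 1 row among the 14,792 rows of both bulk-seq tables and none among the 6,847 rows of the pseudo bulk-seq table. The study compared ways of preparing testes of the AB strain for RNA-seq, and the effect of TCDD (2,3,7,8-tetrachlorodibenzo-p-dioxin) seen by each. Intact testes (CI, n = 3) and dissociated testes (CD, n = 3) were taken from control males of 1 year of age, the CD testis being the contralateral organ of a fish whose other testis stayed intact. Dissociated testes of control males (CB, n = 3) and of males exposed to TCDD (TB, n = 2), all 1.5 years old, were measured by bulk-seq, and cells of the same suspensions were measured by scRNA-seq and summed as pseudo bulk-seq (CP, n = 3, and TP, n = 2). Exposure to TCDD at 50 pg/ml in 0.1% DMSO lasted 1 h at 3 and again at 7 weeks post-fertilization, and controls received 0.1% DMSO; the labels of control samples also carry the figure of 50 pg/ml, beside DMSO only. Dissociation meant mincing, shaking in collagenase and passing the suspension through a kit that removes dead cells. A CD, CB or TB library therefore holds cells that came free, most of them living by the paper's viability assay.

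Steroid receptors are transcription factors that are switched on by their ligand. The androgen receptor binds testosterone and, in fish, 11-ketotestosterone; the estrogen receptors bind estradiol; and the progestin receptor binds the maturation-inducing progestins of fish. Aromatase converts androgens to estrogens. Zebrafish kept a pair of aromatase genes, of which cyp19a1a is the main form of the ovary and cyp19a1b that of the brain, where radial glia express it and estrogen induces it, and a pair of beta-type estrogen receptors, esr2a and esr2b. In the testis, Leydig cells make androgens, and the somatic cells, Sertoli cells among them, receive much of the steroid signal on which spermatogenesis depends.

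Bulk-seq levels were counts from 3′ mRNA libraries, given here as CPM, the count relative to the scaled library total, on 1 scale for the 11 bulk-seq libraries. Total counts were 4,828,801 to 36,172,885 per bulk-seq library, with the lowest in TB replicate 2. Along the first principal component of CDxCI, which held 44.6% of the variance, CI replicate 2 lay at 96, the other CI libraries at 11.9 and 12.7, and the CD libraries between −52.8 and −31.4. Results that rest on CI replicate 2 are therefore also given without it. Germ cell markers of the testis were present in every library, with summed spermatogonial markers at 1987 to 3821 CPM. Nothing in the labels says whether replicates of CB and TB were single fish or pools, so that p-values measure the spread between these samples.

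Intact testes held more transcript of all 5 receptors than their dissociated counterparts, and less of both aromatases, although only pgr and esr2a passed the test. The transcript of pgr fell 24.4-fold and that of esr2a 3.21-fold. A call is an adjusted p under 0.05 in edgeR's quasi-likelihood test, with Benjamini-Hochberg adjustment over all rows tested. By this rule 2 of the 7 genes were lower in CD and 0 were higher, where 1.96% of the 12,773 rows tested were called lower and 0.258% higher. The 3 CD libraries lay entirely below the 3 CI libraries for the 5 receptors, against 13.1% of all rows, and entirely above them for cyp19a1b, against 13.3%.

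**Figure D1:**
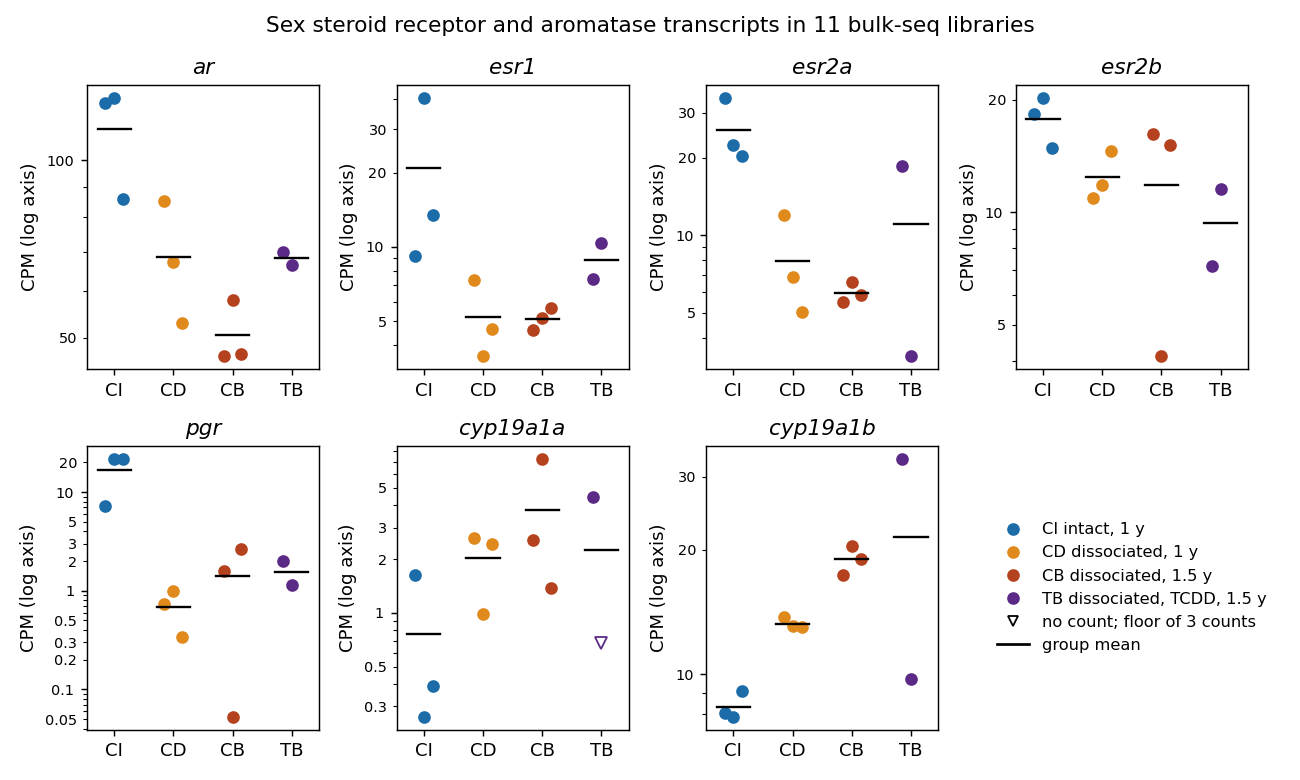
Level of each of the 7 transcripts in the 11 bulk-seq libraries, in CPM on log axes that differ in range between panels, with 1 point per library and a line at the group mean; the open triangle is the floor of 3 counts for a library with no count, which the mean takes as 0. The intact testes (CI) have the highest mean for the 5 receptors and the lowest for both aromatases, and the 2 TCDD libraries (TB) lie far apart for esr2a and cyp19a1b.

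The progestin receptor pgr stood at 7.15, 21.8 and 21.7 CPM in CI replicates 1, 2 and 3, and at 0.738, 0.988 and 0.343 CPM in the CD libraries. The groups did not overlap: the lowest CI library was above every dissociated library of the series. The means were 16.9 ± 8.42 CPM in CI and 0.690 ± 0.325 CPM in CD (SD over 3 libraries), and the log2 fold change was −4.61 (SE 0.554, 95% interval −5.83 to −3.39, edgeR adjusted p = 0.00165). Of the 12,773 rows tested, 20 had a lower fold change. The counts behind the CD values were small, at 8 to 23 per library, against 57 to 608 in CI. Leaving out any 1 of the 6 libraries kept the pgr call, with log2 fold changes between −4.97 and −4.30 and edgeR adjusted p of at most 0.0215. The dissociated testes of older fish held little pgr as well, at 1.57, 0.0529 and 2.62 CPM in CB replicates 1, 2 and 3. The CB replicate 2 value rests on 2 counts (exact Poisson 95% interval 0.0064 to 0.191 CPM, counting error only), in the deepest bulk-seq library. With CB in place of CD, a comparison added after the data had been seen, pgr was at −3.63 and the edgeR adjusted p rose to 0.0762. The cause was not tested. Here and below, this comparison reuses the CI libraries. Age, 1.5 years in CB and 1 year in CI, cannot be told apart from dissociation in it.

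Of the estrogen receptors, esr2a passed the test. It was at 34.3, 22.5 and 20.4 CPM in the CI libraries and at 12, 6.87 and 5.01 CPM in the CD libraries. No CD library reached a CI library. The log2 fold change was −1.68 (SE 0.367, 95% interval −2.49 to −0.87, edgeR adjusted p = 0.0411). This call stood close to the threshold: it was lost without CD replicate 2 (adjusted p = 0.170), CD replicate 3 (0.197), CI replicate 1 (0.117) or CI replicate 3 (0.0669), and with libraries scaled by their totals alone (0.0785), which also moved the median log2 fold change of all rows from 0.01 to 0.12. Over the other settings and left-out libraries the adjusted p ran from 0.000565 to 0.197. It held without CI replicate 2 (−1.76, edgeR adjusted p = 0.0264). The CB libraries, at 5.48, 6.55 and 5.83 CPM, also lay below every CI library, and CB in place of CD gave −2.12 (SE 0.307, edgeR adjusted p = 0.00825).

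The gene esr1 encodes the alpha-type estrogen receptor. Its transcript was at 9.16, 40.3 and 13.5 CPM in the CI libraries and at 7.31, 3.61 and 4.63 CPM in the CD libraries. The groups did not overlap, and CI replicate 2 stood well above the other intact testes. The log2 fold change of −2.01 (SE 0.543, 95% interval −3.23 to −0.80) did not pass edgeR's test (adjusted p = 0.101). Without CI replicate 2 it shrank to −1.13 (adjusted p = 0.170). Leaving out CI replicate 1 instead gave −2.37 and a call (adjusted p = 0.0378), as did DESeq2 with all libraries (adjusted p = 0.00309), and over the other settings and left-out libraries the adjusted p reached 0.322. CI replicate 2, the library with the most esr1, also held the highest marker sums among CI of leukocytes, at 593 CPM against 225 and 285 in the other CI libraries, of smooth muscle and peritubular cells, at 1589 against 744 and 757, and of radial glia and brain, at 1052 against 391 and 443. Its Sertoli, Leydig, endothelial and oocyte marker sums were the highest of the CI libraries too. Single markers of a list did not all follow their sum. The leukocyte sum there is mostly cd74a (558 CPM). Of the other leukocyte markers, mpeg1.1 was highest in CI replicate 2 (8.28 CPM), but coro1a (10.1), c1qa (4.07) and c1qb (13.4) were lowest. Of the Leydig markers, hsd11b2 (1605 CPM) and cyp11c1 (651) were highest there, cyp17a1 and insl3 lay between, and star (53.6), nr5a1a, nr5a2 and cyp17a2 were lowest. The part of these cells in the esr1 level was not tested.

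The other beta-type receptor, esr2b, had the smallest fold change of the 5 receptors in CDxCI. It was at 18.3, 20.2 and 14.8 CPM in the CI libraries and at 10.9, 11.8 and 14.6 CPM in the CD libraries. The lowest CI and the highest CD library nearly met. Its log2 fold change of −0.52 (SE 0.268, 95% interval −1.11 to 0.08, edgeR adjusted p = 0.349) was not called. The difference between the fold changes of esr2a and esr2b was not tested. Beta-type receptors and aromatases are paralogous pairs, and how the unnamed counting program treated reads shared between overlapping or similar 3′ ends is not given in the sources used here.

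**Figure D2:**
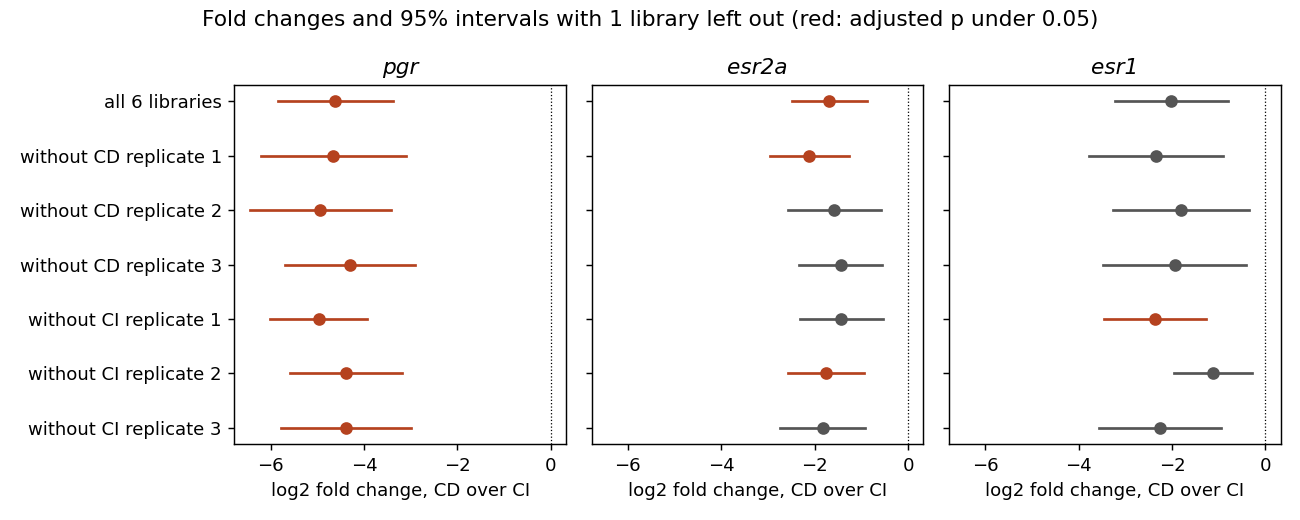
Log2 fold changes of pgr, esr2a and esr1 in CD over CI with their 95% intervals, with all 6 libraries and with each library left out in turn; red marks an adjusted p under 0.05. The pgr call stands in every case, the esr2a call is lost in 4 of 6 cases, and esr1 is called in 1 of 6.

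The androgen receptor ar was at 125, 128 and 86 CPM in the CI libraries and at 85.4, 67.1 and 53.0 CPM in the CD libraries. The lowest CI and the highest CD library were nearly level. The mean in CD was 60.6% of that in CI, and the log2 fold change of −0.72 (SE 0.242, 95% interval −1.26 to −0.19) did not pass after adjustment (edgeR adjusted p = 0.168). The CB libraries were lower still, at 46.5, 57.9 and 46.9 CPM, and CB in place of CD gave −1.18 (SE 0.238, edgeR adjusted p = 0.0345). With that replacement, ar and esr2a were the 2 receptors called lower than in CI, where 1.4% of the rows tested were called lower. That comparison was added after the data had been seen and reuses the CI libraries. CB and CI also differ in age, so these calls are no second measure of dissociation alone.

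Both aromatases had more transcript, on average, in dissociated than in intact testes, and neither passed the test. The brain form cyp19a1b was at 8.03, 7.88 and 9.09 CPM in the CI libraries, at 13.7, 13.1 and 13 CPM in the CD libraries and at 17.4, 20.4 and 19.0 CPM in the CB libraries. Libraries of 1 group lay close together, and the 3 groups did not overlap in that order. Of all rows tested, CD lay entirely above CI for 13.3% and CB entirely above CD for 14.4%. The share of rows with both was not computed, and CB also differed from CI and CD in age. The log2 fold change of CD over CI was 0.66 (SE 0.269, 95% interval 0.07 to 1.26, edgeR adjusted p = 0.246), and CB in place of CD gave 1.16 (SE 0.271, edgeR adjusted p = 0.0592). The gonadal form cyp19a1a was near the limit of detection in intact testes, at 1.63, 0.263 and 0.392 CPM, of which the CI replicate 2 value rests on 2 counts (exact Poisson 95% interval 0.0318 to 0.949 CPM). It was at 2.64, 0.988 and 2.44 CPM in the CD libraries, so that the groups overlapped. Its log2 fold change of 1.47 had a wide interval (SE 0.833, 95% interval −0.37 to 3.31, edgeR adjusted p = 0.390). Without CI replicate 1, the highest CI library, it was 2.54 (edgeR adjusted p = 0.206).

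**Figure D3:**
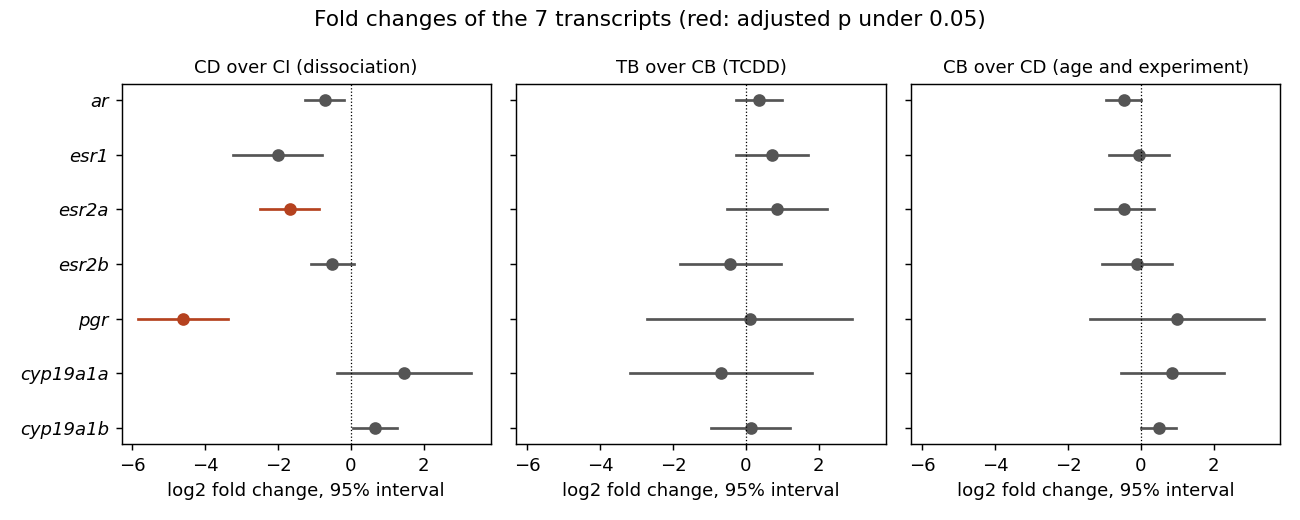
Log2 fold changes of the 7 transcripts in the dissociation (CD over CI), TCDD (TB over CB) and CB over CD comparisons, with their 95% intervals. Red marks an adjusted p under 0.05. The panel headed age and experiment compares groups that differ in age and preparation. Only pgr and esr2a in CD over CI are called, and every interval of the TCDD comparison spans 0.

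Many somatic cell markers were also lower in CD. Summed transcripts of 10 Sertoli cell markers were at 1604 to 2413 CPM in CI and 229 to 266 CPM in CD, and 5 of the 10 (gsdf, cldn11a, aldh1a2, amh and fshr) were called lower. In CI the Sertoli sum is mostly gsdf (1422 CPM on average, 12.5 in CD). In the dissociated testes it is mostly dmrt1 (210 CPM in CD on average, 222 in CI), so the sum understates the fall of the called markers. The 5 called markers had log2 fold changes from −6.83 (gsdf) to −3.65 (fshr). Of the uncalled markers dmrt1 was at −0.09 and wt1a at 0.59 on the log2 scale. Summed transcripts of 8 Leydig cell markers were at 3915 to 5556 CPM in CI and 45.5 to 238 CPM in CD, and 4 of the 8 (cyp17a1, cyp11c1, insl3 and hsd11b2) were called lower. In CI the Leydig sum is mostly insl3 (2920 CPM on average). All 8 had a log2 fold change below 0, and of the uncalled markers star was at −3.82 and nr5a2 at −0.24. Smooth muscle and peritubular markers went from 744 to 1589 CPM in CI to 47.7 to 53.1 CPM in CD, with 3 of 5 called lower. Leukocyte markers went from 225 to 593 CPM to 77.0 to 104 CPM, with 3 of 5 called lower, and endothelial markers from 24.7 to 45.5 CPM to 16.4 to 22.9 CPM, with 0 of 4 called. Of the 5 leukocyte markers, 4 had a log2 fold change below 0, and coro1a was at 0.37. The germ cell marker sums did not share this drop: spermatogonial markers summed to 2619 to 2985 CPM in CI and 2899 to 3821 CPM in CD, with 0 of 7 called. This sum is mostly ddx4, piwil1 and dazl. Of the 7, 2 had a log2 fold change below 0, among them zbtb16a at −1.55 (edgeR adjusted p = 0.105). Spermatocyte markers summed to 4330 to 4454 CPM in CI and 4379 to 6500 CPM in CD, with 1 of 6 called higher. Spermatid and sperm markers summed to 786 to 1045 and 764 to 1034 CPM, with 0 of 6 called. In CB and TB, Sertoli markers summed to 256 to 323 and 233 to 251 CPM, Leydig markers to 117 to 333 and 183 to 207 CPM, and smooth muscle and peritubular markers to 68.2 to 220 and 124 to 251 CPM, the last above every CD library. No Sertoli or Leydig marker was at 0 throughout a group. In such samples fewer cells of a type and less RNA per cell cannot be told apart, and the part of these cells in the receptor values was not tested.

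**Figure D4:**
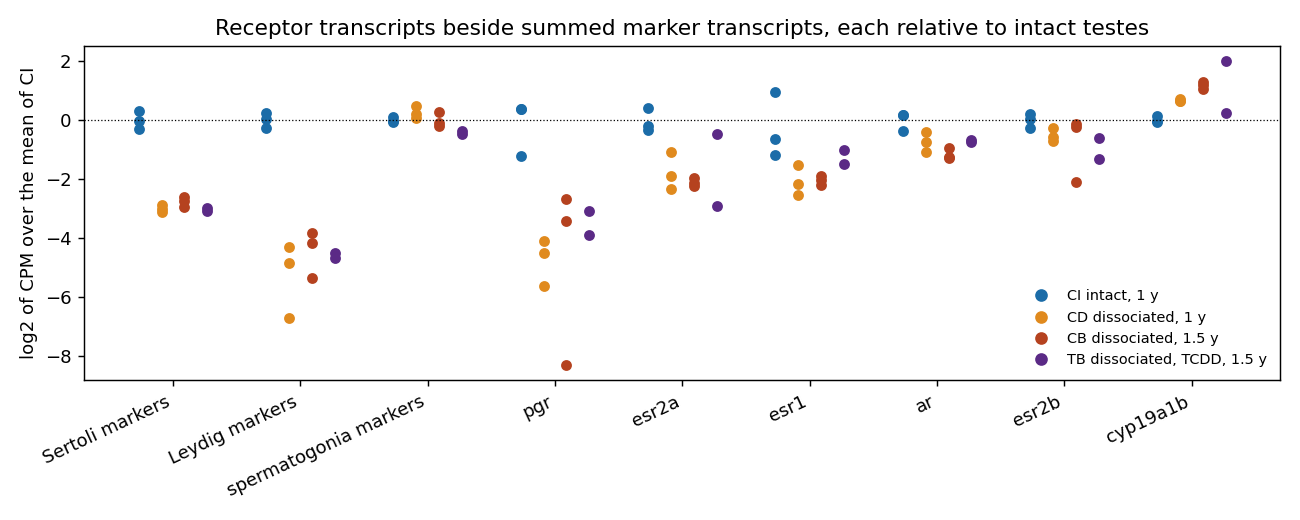
Log2 of each library's CPM over the mean of the 3 CI libraries, for summed Sertoli, Leydig and spermatogonial markers and for 6 of the transcripts, with 1 point per library; cyp19a1a, with 1 library at 0, is not drawn. Sertoli and Leydig markers and pgr lie far below intact testes in all dissociated groups, esr2b ranges from near the CI mean to 4.12 CPM in CB replicate 2, and cyp19a1b lies above the CI mean. In the dissociated groups the Sertoli sum is mostly dmrt1, which hardly moved from CI to CD.

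Marker sums beside the aromatases moved otherwise. Oocyte markers summed to 80.2 to 126 CPM in CI and 86.8 to 92.4 CPM in CD. In CB they summed to 94.4 to 118 CPM and in TB to 98.5 to 178 CPM. The largest part of this sum is buc (46.0 CPM in CI on average). In CDxCI, 4 of the 9 oocyte markers had a log2 fold change below 0, and 0 were called. Whether these markers come from ovarian tissue or from cells of the testis was not tested. The main aromatase form of the ovary is cyp19a1a, and whether oocytes express this gene was not examined. Radial glia and brain markers, the cells known for cyp19a1b, summed to 391 to 1052 CPM in CI, 201 to 270 in CD, 343 to 433 in CB and 594 to 669 in TB. From CI to CD this sum therefore went the opposite way to cyp19a1b, and from CD to CB the same way. That course was not particular to these markers. Liver markers summed to 444 to 512 CPM in CI, 373 to 391 in CD, 631 to 753 in CB and 858 to 1148 in TB. The radial glia and brain sum is mostly fabp7a (510.5 CPM in CI on average), and gfap hardly moved from CI to CD (log2 fold change 0.01). In CDxCI, 4 of the 5 radial glia and brain markers had a log2 fold change below 0, and 0 were called. The part of any ovarian tissue and of radial glia and brain cells in the aromatase values was not tested.

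TCDD exposure was compared in dissociated testes (TBxCB). None of the 7 transcripts was called, and none of the 12,939 rows tested was (0%), where 1149 rows had an unadjusted p under 0.05 and DESeq2 called 9. Among the 7 the lowest unadjusted p was 0.134, and DESeq2 called 0. In data simulated for this comparison on 12,751 genes, the same test found 146 of 194 genes changed 4-fold. The simulation gave every gene the same dispersion and did not model the spread seen between the TB libraries. The share it found therefore does not measure the power for these 7 transcripts. The TB libraries lay above all CB libraries for 2 transcripts, ar and esr1, where 15.6% of all rows did so.

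The ar level was 69.9 and 66.5 CPM in TB replicates 1 and 2, above the 46.5 to 57.9 CPM of CB. The log2 fold change was 0.37 (SE 0.279, 95% interval −0.26 to 1.00, edgeR adjusted p = 0.647). The esr1 level was 7.38 and 10.4 CPM in TB and 4.59, 5.13 and 5.65 CPM in CB. Its log2 fold change was 0.72 (SE 0.436, 95% interval −0.27 to 1.70, edgeR adjusted p = 0.590). Both transcripts were thus higher in each TB library than in any CB library, and neither difference passed the test. Over all 14,792 rows, TB minus CB differences correlated at 0.392 (Spearman) with CI minus CD differences. This value also served to check the row order of TBxCB, and no filter on low counts was applied to it. The TB libraries and CI replicates 1 and 2 had lower total counts than any CD or CB library, while CI replicate 3 had more than any CD library. The transcripts of ar and esr1 were also higher in CI than in CD. The part of this shared shift in them, and that of depth in the shift, were not tested.

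For 3 transcripts the TB libraries lay far apart. For esr2a, TB replicate 1 was at 18.7 CPM and TB replicate 2 at 3.39 CPM, a 5.50-fold gap, with the 3 CB libraries between them within 1.2-fold of each other. For cyp19a1b, TB replicate 1 was at 33.2 CPM and TB replicate 2 at 9.72 CPM, a 3.42-fold gap, again with the CB libraries between them and within 1.17-fold. TB replicate 2 had the lowest total, and its values rest on 15 counts of esr2a (exact Poisson 95% interval 1.90 to 5.59 CPM) and 43 of cyp19a1b (7.04 to 13.1 CPM). For cyp19a1a, TB replicate 1 was at 4.47 CPM (3.44 to 5.72 CPM) and TB replicate 2 had no count, where 3 counts would be 0.678 CPM. The CB libraries spread as widely for this gene, at 2.57, 7.29 and 1.38 CPM. The esr2b levels of 7.17 and 11.5 CPM in TB lay within those of CB, at 16.2, 4.12 and 15.1 CPM, and the pgr levels of 1.99 and 1.13 CPM in TB lay within those of CB as well. The log2 fold changes were 0.85 for esr2a (95% interval −0.52 to 2.23), 0.13 for cyp19a1b (−0.95 to 1.21), −0.68 for cyp19a1a (−3.17 to 1.82), −0.42 for esr2b (−1.80 to 0.96) and 0.11 for pgr (−2.71 to 2.92). The intervals all include 0, and those of pgr and cyp19a1a are the widest of the 7.

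The dissociated control testes CB and CD differed in age and in preparation, which cannot be told apart. By the paper's methods, CD used 1 testis of a fish and all its cells. CB used both testes and the cells left after loading for scRNA-seq. The paper says that its results come from several independent exposure experiments, run as successive blocks, but it ties no replicate to a block. Whether CB and CD were also handled in separate experiments is not stated in the sources used here. None of the 7 transcripts was called by edgeR or DESeq2, where edgeR called 0.505% of 12,860 rows. At an unadjusted edgeR p under 0.05 there was 1 of the 7, against 2637 of the 12,860 rows. The brain aromatase cyp19a1b came nearest, with all CB libraries above all CD libraries, as for 14.4% of rows, and a log2 fold change of 0.49 (SE 0.218, 95% interval 0.01 to 0.97, unadjusted p = 0.0480, edgeR adjusted p = 0.240). The ar level was lower in CB on average, at −0.47 (SE 0.213, edgeR adjusted p = 0.245), with overlapping libraries. The values of esr1 and esr2b hardly moved, at −0.05 (95% interval −0.86 to 0.77) and −0.10 (−1.07 to 0.86). For esr2a the value was −0.45 (−1.27 to 0.37), for pgr 0.99 (−1.39 to 3.37) and for cyp19a1a 0.86 (−0.56 to 2.28).

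Ordered by mean level, ar ran from CI through CD and TB to CB, and only CD and TB overlapped among neighbours. For esr1 and esr2a the order was CI, TB, CD, CB; CD overlapped CB for both genes, CI overlapped TB for esr1, and TB overlapped CD for esr2a. For pgr it was CI, TB, CB, CD, with overlap between TB and CB and between CB and CD. For esr2b it was CI, CD, CB, TB, with overlap among all neighbours except CI and CD. For both aromatases CI had the lowest mean. The order of cyp19a1b ran from TB through CB and CD to CI, with TB overlapping CB. That of cyp19a1a ran from CB through TB and CD to CI, and every neighbouring pair of groups overlapped.

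Across the 11 libraries the receptors varied partly together, which is given as a description, since libraries of a group share preparation and age. The Pearson correlation of log2 CPM was 0.83 for ar with esr2a, 0.75 for ar with esr1, 0.75 for esr1 with pgr and 0.24 for esr2a with esr2b. The aromatases had 0.69 with each other, while cyp19a1b had −0.64 with ar and −0.65 with esr2b. Among 12,043 rows with a mean of at least 1 CPM, the nearest patterns were svila, ftr86 and ndfip1 for ar (0.91 each), btg1, atp6ap1b and klf13 for esr1 (0.95, 0.94 and 0.93), and cmtm6, irf7 and zgc:165573 for esr2a (0.94, 0.93 and 0.91). For esr2b they were clic4, tpgs1 and anln (0.97, 0.96 and 0.96), and for pgr ctsc, atp6v1c1b and zgc:63587 (0.95, 0.95 and 0.94). For cyp19a1a they were creb1b, nsun5 and st8sia2 (0.96, 0.96 and 0.95), and for cyp19a1b g6pc1a.2, slc26a11 and inpp5ka (0.95, 0.93 and 0.93).

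Among the genes that supply and regulate the receptors' ligands, some were called lower in CD and none higher. Of the ligand synthesis genes, 4 of 11 tested were called lower and 0 higher, with a median log2 fold change of −1.56, where the median of all rows was 0.01. They were hsd11b2, needed for 11-oxygenated androgens (924 CPM in CI and 11.2 in CD on average, log2 fold change −6.38, SE 0.606, edgeR adjusted p = 0.00187), cyp11c1, the 11-beta-hydroxylase of the same route (−5.20), cyp17a1, which makes the androgen precursors (−4.60), and fdx1b, the ferredoxin of steroidogenic mitochondria (−3.21). Of the gonadotropin receptors and paracrine factors, 5 of 9 were called lower and 0 higher, with a median of −3.93. They were gsdf (−6.83), the Leydig cell hormone insl3 (−4.98), amh (−4.51), the follicle-stimulating hormone receptor fshr (−3.65) and the activin subunit gene inhbaa (−2.82). Several of these genes are also Sertoli or Leydig markers above.

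Closer to the receptors themselves, fewer genes were called. Of the other nuclear receptors of the steroid and SF-1 families, 1 of 9 was lower, nr5a1b, a gene of the SF-1 family that regulates steroidogenic genes (11 CPM in CI and 2.45 in CD, log2 fold change −2.18, SE 0.468, edgeR adjusted p = 0.0391), with a median of −0.62. Of the receptor chaperones and coregulators, 1 of 12 was lower, fkbp5, a co-chaperone of steroid receptors that glucocorticoids induce (11.1 and 2.11 CPM, −2.41, SE 0.483, edgeR adjusted p = 0.0268), with a median of −0.05. None of 8 membrane progestin and estrogen receptor genes and none of 8 estrogen- and androgen-responsive genes was called by edgeR, with medians of −0.15 and −0.39; at an unadjusted p under 0.05 there were 1 and 0, and DESeq2 called 0. No gene of these 6 lists was called in TBxCB by edgeR or DESeq2. At an unadjusted edgeR p under 0.05 there were 4 of 55, against 1149 of 12,939 rows. In CB over CD edgeR called 1 of 55, hsd11b2 (1.88, SE 0.301, edgeR adjusted p = 0.0365), and DESeq2 called 9. Of all 12,860 rows tested there, edgeR called 65 and DESeq2 called 1021.

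In pseudo bulk-seq (TPxCP) none of the 7 genes had a row under any accession that the annotation gives for it. The lowest count in that table was 30, and its libraries held 3,490,409 to 9,987,998 counts. Among bulk-seq rows at the level of ar in CB, 30 to 100 CPM, 54% had a pseudo bulk-seq row of the same accession. The share was 34.7% at the level of esr2b and cyp19a1b (10 to 30 CPM), 14.1% at that of esr1, esr2a and cyp19a1a (3 to 10 CPM) and 4.35% at that of pgr (1 to 3 CPM). Absence at these levels was therefore the more frequent state for 6 of the 7, and for ar the less frequent one by a narrow margin. Rows at higher levels were often absent as well: 65.4% had a row at 100 to 300 CPM and 73.3% at 300 CPM and over. The cause of the absence was not tested. Of the related lists, the receptor chaperones and coregulators had 7 pseudo bulk-seq rows for 12 bulk-seq rows, the membrane receptors 4 for 10, the other nuclear receptors 1 for 11 and the gonadotropin receptors and paracrine factors 1 for 9. The ligand synthesis genes had 0 for 13 and the responsive genes 0 for 8. The effect of TCDD on the 7 transcripts could therefore not be compared between bulk-seq and pseudo bulk-seq.

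**Figure D5:**
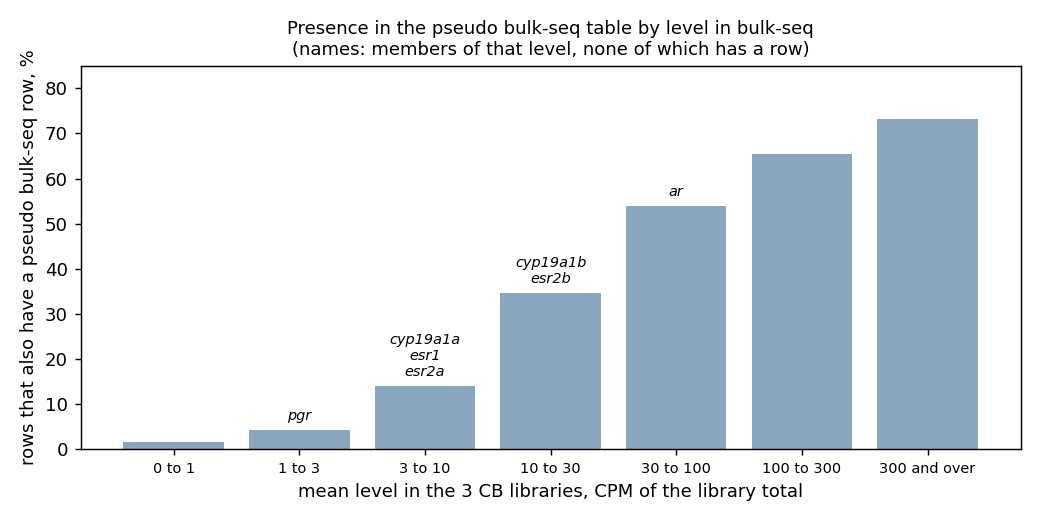
Share of bulk-seq rows whose accession also had a row in the pseudo bulk-seq table, in %, by mean level in the 3 CB libraries in CPM of the library total, with the names of the genes described here over the bar of their level. None of the named genes had a pseudo bulk-seq row, at levels where 4.35% to 54% of rows had one.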

How the data were processed

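For bulk-seq, the authors aligned reads of QuantSeq 3′ libraries to GRCz11 on BlueBee and counted them; for pseudo bulk-seq, they summed counts over cells after Cell Ranger 6.01 and Seurat 4.0.4; the paper names another reference for the latter than the labels. The program that counted the bulk reads is not given in the sources used here. The deposited values are raw counts per RefSeq accession; no sample column was left unused (0). The tables' own fold changes and p-values were not used. In TBxCB the counts run in reverse order to the accessions and were reversed: the correlation across rows of TB−CB with CI−CD differences was then 0.392, against 0.00495 as deposited. Its column names gave the group but matched no single title. Symbols came from RefSeq (GRCz12tu), for 97.6% of bulk-seq and 85.2% of pseudo bulk-seq rows; the 7 genes were sought there by all their accessions in that annotation.

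Rows passing filterByExpr were scaled by TMM and tested with edgeR 4.0.16 (R 4.3.3, glmQLFTest, robust, no block), checked on simulated data. SE is the log2 fold change over the root of F. Levels are CPM over 11 libraries; correlations used log2 CPM with a prior count of 2. Floors and Poisson intervals cover counting error only. All 7 genes, up to 5 called genes a list and the 3 nearest patterns were named. The genes and lists were chosen with earlier results of these data known. Alternatives were DESeq2 1.42.0, RLE scaling, library totals, no filter, the replicate number as a block and leaving out each library.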

Additional observations from a re-analysis of the deposited data

How the results depend on the processing

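In CDxCI, 2 of the 7 transcripts were called lower, against 3 with DESeq2 (pgr, esr2a and esr1) and 1 with library totals. Leaving out 1 library gave 1 to 2, and without CI replicate 1 the 2 were pgr and esr1. With the replicate number as a block 2 were called, and no call among the 7 changed in any comparison (TBxCB 0, CBxCD 0). The labels do not say that equal numbers name 1 fish or 1 exposure experiment. Same-numbered CD and CI libraries correlated at 0.261, 0.0408 and −0.0593 in their deviations. All rows called in CDxCI were 283, with DESeq2 792, with the block 367 and when leaving out 1 library 105 to 333. In TBxCB none was called by edgeR, but 698 were without TB replicate 1, which leaves 1 TB library assumed to vary as CB does; none of the 7 was among them. In CBxCD 65 were called, with DESeq2 1021, with no filter 184, with the block 18 and when leaving out 1 library 13 to 312.

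Among the 7, some uncalled log2 fold changes turned sign. With the block these were cyp19a1b (−0.0893) and esr2b (0.0817) in TBxCB and esr1 (0.0155) in CBxCD. Leaving out 1 library gave, in TBxCB, −1.01 to 0.79 for cyp19a1b, −0.87 to 1.62 for esr2a, −9.27 to 0.26 for cyp19a1a and −0.42 to 0.96 for pgr. The lowest value of cyp19a1a is without TB replicate 1, against a library with no count, and is no bound. In CBxCD it gave −0.25 to 0.29 for esr1, −0.40 to 0.31 for esr2b and −0.0657 to 1.25 for cyp19a1a. The causes were not tested. No sign turned in CDxCI. Alternatives for pseudo bulk-seq gave no value, since none of the 7 had a row. Counts were few for cyp19a1a in CI and TB and for pgr in the dissociated testes, whose lowest libraries held 0 to 8 counts.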
